A study of Mus musculus with 2 samples.

Results

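Wnt ligands, their Frizzled receptors and the coreceptors that act beside them were described in adipose-derived stromal cells, a culture of fibroblast-like progenitors taken from fat. The members were every gene whose platform symbol was Wnt or Fzd followed by a digit, together with Lrp5, Lrp6, Ror1, Ror2 and Ryk. These came to 34 of the 30142 named genes on the array: 19 Wnt ligands, 10 Frizzleds and 5 coreceptors, each measured by 1 transcript cluster. The donors were C57BL/6J mice of 6 to 10 weeks, and cells of their inguinal fat were grown in DMEM with 15% fetal bovine serum. The wild-type group was 1 sample with no deletion. The Wisp1 KO group was 1 sample from mice in which floxed exons 1 to 5 of Wisp1, on chromosome 15, had been removed throughout the body by a cross to a Cre-neo mouse. The number of animals behind each sample and their sex are not given in the sources used here. Each sample was hybridised to 1 array, so no difference below can be set against a spread between replicates, and no test or p-value is given. Differences are given as knockout minus wild type in log2 units, and they compare these 2 arrays.

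Wnt proteins are secreted, lipid-modified glycoproteins that bind the cysteine-rich domain of Frizzled receptors on nearby cells. When Lrp5 or Lrp6 joins the complex, beta-catenin is spared from destruction and switches on target genes with TCF and LEF factors. When Ror1, Ror2 or Ryk takes the coreceptor's place, the signal runs through cytoskeletal and calcium routes without beta-catenin. In mesenchymal progenitors, beta-catenin signalling is known to restrain fat formation and to favour bone, and Wisp1 (now Ccn4) is itself a Wnt-induced gene of the CCN family. The study concerned Wisp1 in cartilage formation during heterotopic ossification, and the members show how the receiving and sending side of Wnt signalling looked on the array of cells without it.

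No member differed by 2-fold between the arrays, and the differences of all 34 lay between -0.28 and 0.39. Among the 15072 named genes whose mean over both arrays reached the median of named genes, a log2 value of 4.65, 0.166% differed by at least 2-fold, 0.0663% as higher and 0.0995% as lower in the knockout. The members' share, 0 of the 27 that reached this level and 0 of the 7 that did not, is near that background. The highest members were the coreceptor gene Ror2 at 0.39, the ligand gene Wnt16 at 0.37 and the receptor gene Fzd5 at 0.31, and the lowest was Fzd7 at -0.28. At a smaller difference of 0.32 on the log2 scale, Ror2 and Wnt16 were past it as higher and no member as lower, where the background was 3.89% higher and 2.64% lower.

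The sequence just around the start site is shown for the 4 members with the largest differences among those at or above the median level, since these carry what difference there was. Each run covers 250 bases before to 50 bases after the annotated start in RefSeq, build GRCm38.p6, written 5′ to 3′ on the gene's strand. Capitals mark the 5-base core of the TCF and LEF site, CTTTG or its reverse complement CAAAG.
Ror2, chr13:53286075-53286374, minus strand: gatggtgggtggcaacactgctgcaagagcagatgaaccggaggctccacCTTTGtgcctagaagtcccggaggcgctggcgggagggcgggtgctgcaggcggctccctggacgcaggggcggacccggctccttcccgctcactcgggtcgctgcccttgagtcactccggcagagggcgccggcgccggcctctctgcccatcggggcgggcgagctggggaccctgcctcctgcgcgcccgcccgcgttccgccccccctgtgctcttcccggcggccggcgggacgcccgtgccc
Wnt16, chr6:22287977-22288276, plus strand: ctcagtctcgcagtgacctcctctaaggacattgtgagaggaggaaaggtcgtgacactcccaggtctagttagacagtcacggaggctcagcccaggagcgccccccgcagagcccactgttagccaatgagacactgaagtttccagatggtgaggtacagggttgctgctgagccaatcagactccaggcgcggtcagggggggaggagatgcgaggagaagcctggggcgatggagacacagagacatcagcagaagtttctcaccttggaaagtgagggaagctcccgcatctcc
Fzd5, chr1:64737701-64738000, minus strand: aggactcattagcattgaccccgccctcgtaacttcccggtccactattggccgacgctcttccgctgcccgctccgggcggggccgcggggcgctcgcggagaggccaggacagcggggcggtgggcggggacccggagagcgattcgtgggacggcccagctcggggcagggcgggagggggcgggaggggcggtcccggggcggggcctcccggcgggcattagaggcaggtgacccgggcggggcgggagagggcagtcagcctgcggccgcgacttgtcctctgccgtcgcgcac
Fzd7, chr1:59481897-59482196, plus strand: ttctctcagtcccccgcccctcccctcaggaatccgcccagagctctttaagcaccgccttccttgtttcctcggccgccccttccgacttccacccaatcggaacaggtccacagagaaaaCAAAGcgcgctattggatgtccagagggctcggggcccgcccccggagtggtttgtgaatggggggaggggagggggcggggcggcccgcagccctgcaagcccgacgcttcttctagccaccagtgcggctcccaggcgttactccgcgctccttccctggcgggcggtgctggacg
The Ror2 window held 1 such core and the Fzd7 window 1, while none was found in the windows of Wnt16 and Fzd5. The core occurred in 13 of the 27 windows taken for 24 members (48.1%) and in 53.9% of all 32841 windows. Fzd8 and Wnt8a were left out of the members' windows by choice, so the member shares and medians given here do not cover them. The remaining members without a window had no entry in the promoter annotation used. The GC box, GGGCGG on either strand, occurred in 22 of the 27 (81.5%) against 35.7% of all windows, and TATAAA in 3 (11.1%) against 13.6%. Members' windows were rich in G and C, with a median of 71.3% against 52.7% for all windows, and the median number of CG dinucleotides was 31 against 7. GC boxes overlap runs of G and C, so the latter measures are not separate from the former. The Fzd5 window held 10 GC boxes. The 5 windows without a GC box were those of Wnt16 (58% G and C), Fzd1, Wnt8b and Wnt10b and 1 of the 3 windows of Wnt5b. These matches describe letters in a window and say nothing of binding.

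Among the ligands, 12 of 19 reached the median level and 7 lay below it. Of all 19, 8 were higher and 11 lower on the knockout array, with a median of -0.02. The median over all named genes was 0, with 47% of them higher and 47.4% lower. The dim ligands were mostly those known to signal through beta-catenin: of 9 such genes, 3 (Wnt2b, Wnt10a and Wnt10b) reached the level. This split depends on the cutoff, since Wnt2 fell just short with a mean of 4.64. Levels of different genes also come from different probes and are not comparable.

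Wnt5a, the best-known ligand of Ror2 and an activator of beta-catenin-independent signalling, was at 7.25 on the wild-type array and 7.19 on the knockout array, a difference of -0.07. Its close relative Wnt5b was at 6.08 and 6.07 (-0.0085). Neither array stood out for these genes. Wnt4, a ligand of kidney and gonad development that uses either route depending on the cell, read 6.26 on both arrays, and its difference of 0.0001 became -0.03 under quantile normalization and under loess centring, the only sign among the members that turned under a scaling alternative. Wnt11, a ligand of cell movement in the embryo, was at 4.77 and 4.71 (-0.06). Wnt16, expressed in joints and known for its effect on cortical bone, went from 5.25 to 5.62, or 1.29-fold higher. Thus the difference of Wnt16 stood apart in size from those of the other ligands of this kind, and an absolute difference at least as large was found in 4.60% of the 15072 genes at or above the level.

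Wnt10b, a ligand known to hold preadipocytes back from fat differentiation, was at 5.41 on the wild-type array and 5.39 on the knockout array (-0.02). Wnt10a, known from tooth and skin appendages, was at 4.71 and 4.94 (0.23). Wnt2b was at 4.95 and 4.89 (-0.06), and its relative Wnt2, a ligand of lung development, at 4.76 and 4.52 (-0.24). Wnt2 is the member just under the level, with a mean of 4.64, and Wnt11 the one just above it, with a mean of 4.74. The difference of Wnt10b was thus near 0, and those of Wnt10a, Wnt2b and Wnt2 were of both signs.

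The remaining beta-catenin ligands were dim on both arrays. Wnt1, a ligand of midbrain development, was at 4.15 and 4.36 (0.21), and Wnt3a, the usual activator in cell culture, at 4.35 and 4.56 (0.21). Wnt3 was at 3.90 and 3.77 (-0.12), Wnt8a at 4.43 and 4.19 (-0.24), and Wnt8b at 3.19 and 3.12 (-0.07). They were higher in the case of Wnt1 and Wnt3a and lower in the others. As a gauge of dim values, 1077 olfactory receptor genes, which these cells are not known to use, had a median mean of 2.73, and 1.30% of them reached the level. The central 95% of their differences ran from -0.39 to 0.28, a range that held the differences of all 7 dim ligands. However, 95% of the olfactory genes had means up to 3.94, below those of Wnt1, Wnt2, Wnt3a, Wnt7b and Wnt8a. The range therefore does not give the spread at the level of these ligands.

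Of the other ligands, Wnt9a, which takes part in joint formation, was at 6.11 on the wild-type array and 6.17 on the knockout array (0.06), and Wnt9b, of kidney development, at 5.15 and 5.11 (-0.04). Wnt6 was at 4.76 and 4.89 (0.13). Wnt7a, the ligand that patterns the back of the limb, was at 4.76 and 4.81 (0.05), and Wnt7b at 4.64 and 4.46 (-0.18). None of these 5 reached a difference of 0.2.

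**Figure D1:**
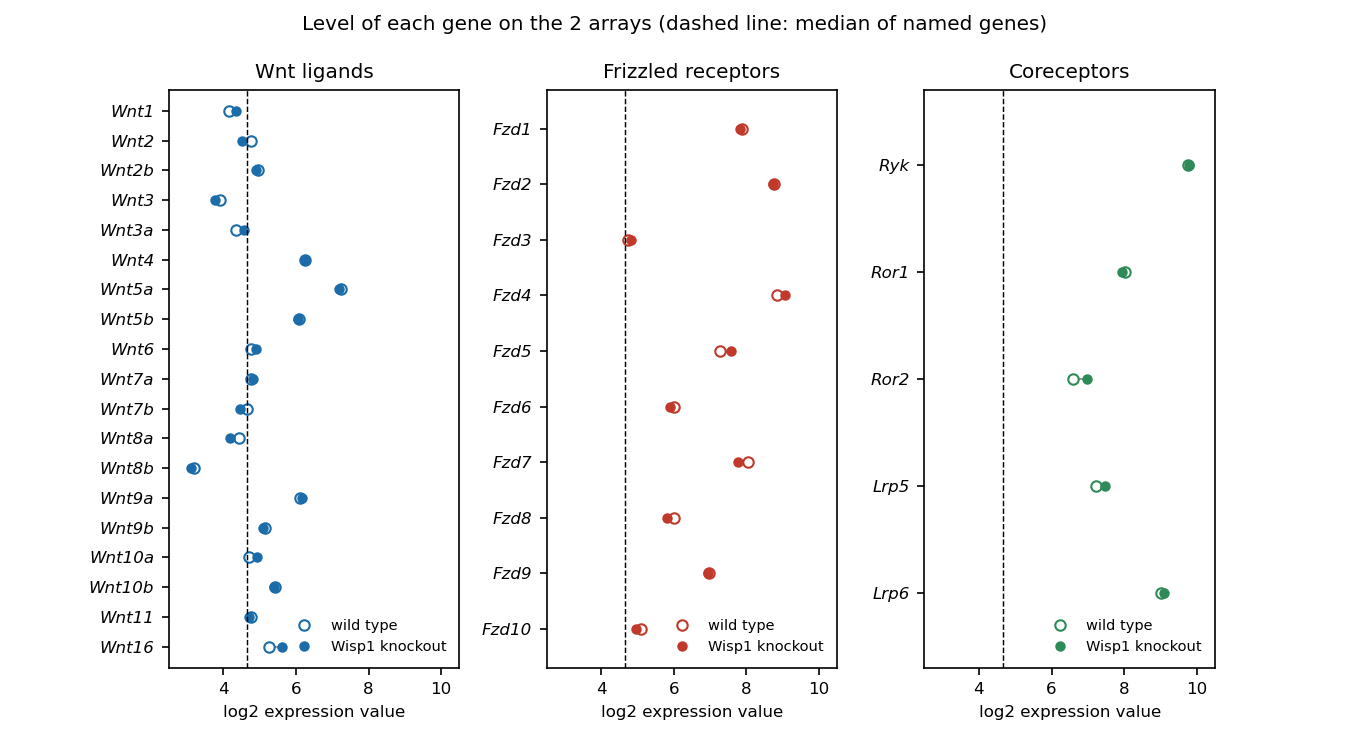
Log2 expression value (x axis) of each Wnt ligand, Frizzled and coreceptor gene (rows) on the wild-type array (open circles) and the Wisp1 knockout array (filled circles), with 1 array per genotype and no error bars. The dashed line is the median of named genes, 4.65; the circles of most genes touch, and the widest gap, that of Ror2, is 0.39. Levels of different genes come from different probes and are not comparable.

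All 10 Frizzled genes reached the median level. Of these, 3 were higher and 7 lower on the knockout array, with a median of -0.04, while the genes at or above the level had a median of 0.03, with 56.9% higher and 39.9% lower. Quantile normalization moved the Frizzled median to -0.07 and loess centring to -0.08. The median of genes at or above the level is not given under these settings, so the 2 moved values cannot be set against 0.03. The majority of lower values is a description of 10 genes on 2 arrays, and 5 of the 7 differences lay between -0.14 and -0.0048.

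Frizzleds fall by sequence into 4 subfamilies, and relatives did not differ alike. Fzd5 and Fzd8, close relatives that both bind Wnt ligands of the beta-catenin route, had opposite signs. Fzd5 was at 7.27 on the wild-type array and 7.57 on the knockout array, 1.24-fold higher, and an absolute difference of that size or more was found in 7.36% of genes at or above the level. Fzd8 was at 6.00 and 5.81 (-0.20).

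Fzd1, Fzd2 and Fzd7 were all lower on the knockout array, but by different amounts. Fzd7, a receptor known from stem cells and early embryos, was at 8.04 on the wild-type array and 7.76 on the knockout array (-0.28), a size reached or passed by 9.22% of genes at or above the level. Fzd1 was at 7.88 and 7.83 (-0.05), and Fzd2 at 8.75 and 8.72 (-0.03). The difference of this subfamily was thus mostly that of Fzd7.

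Fzd4, the receptor that also binds norrin in retinal vessels, was at 8.85 on the wild-type array and 9.05 on the knockout array (0.21). Fzd9, known to be needed for normal bone formation, was at 6.96 on both arrays (-0.0048), and Fzd10 at 5.10 and 4.96 (-0.14). In the subfamily known for tissue polarity, Fzd3 was at 4.75 and 4.83 (0.08) and Fzd6 at 6.02 and 5.89 (-0.13). Each subfamily other than that of Fzd1, Fzd2 and Fzd7 held values of both signs.

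Coreceptors were the family with the highest median, 0.09, and 4 of the 5 were higher on the knockout array. Of all genes at or above the level, 56.9% were higher, with a median of 0.03. Quantile normalization and loess centring each moved the coreceptor median to 0.05, and the background median is not given under these settings. Lrp5, the coreceptor whose mutations change bone mass, was at 7.24 on the wild-type array and 7.47 on the knockout array, 1.18-fold higher. Lrp6, its partner in beta-catenin signalling, was at 9.01 and 9.10 (0.09). Absolute differences at least as large as that of Lrp5 were found in 13.5% of genes at or above the level, and in 52.4% for Lrp6.

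The Ror receptor kinases went apart. Ror2, which binds Wnt5a and is known for its part in growing cartilage, was at 6.59 on the wild-type array and 6.98 on the knockout array, 1.31-fold higher. Ror1 was at 8.01 and 7.95 (-0.06). Ryk, a receptor related to kinases that binds Wnt through an extracellular WIF domain, was at 9.75 and 9.79 (0.05). Of genes at or above the level, 3.96% had an absolute difference as large as that of Ror2, and it was the only member outside their central 95%, which ran from -0.33 to 0.37. The receptor difference of Ror2 was thus not matched by a difference of the same sign in its ligand Wnt5a.

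**Figure D2:**
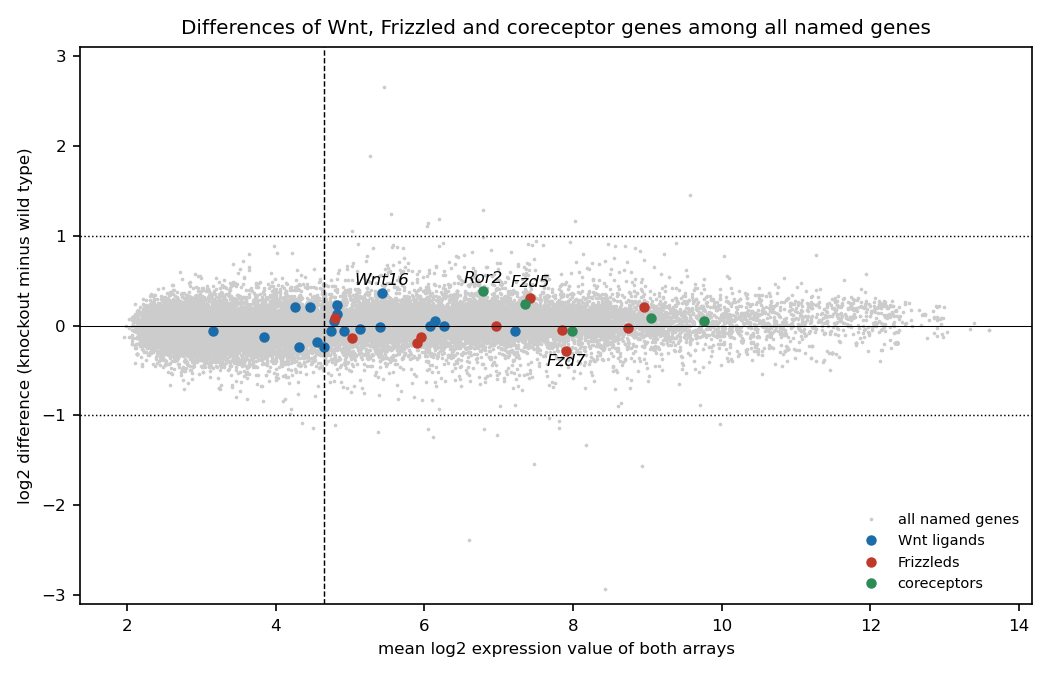
Log2 difference, knockout minus wild type (y axis), against the mean log2 value of both arrays (x axis) for all 30142 named genes (grey) and the Wnt ligands, Frizzleds and coreceptors (coloured). Dotted lines mark 2-fold and the dashed line the level of 4.65. All members lie inside the grey cloud, between -0.28 (Fzd7) and 0.39 (Ror2).

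Across the members the sizes were near those of genes in general. The median absolute difference was 0.11 for the 34 members against 0.09 for all named genes, and 0.07 for the 27 members at or above the level against 0.09 for the genes there. The signed median was -0.01 for all 34 members, with 15 higher and 19 lower, against 47% and 47.4% of all named genes. Of the 27 members at or above the level, 13 were higher and 14 lower, against 56.9% and 39.9% of the genes there.

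Genes of the wider pathway were read from 7 lists, which share a few genes such as Lgr5. Only Ccn4, the deleted gene, differed by 2-fold: it was at 7.79 on the wild-type array and 5.40 on the knockout array, 5.25-fold lower, and where its probes lie relative to the deleted exons was not analysed here. Among 10 genes of ligand production, Porcn, the acyltransferase that attaches the lipid to Wnt proteins, was at 6.54 on the wild-type array and 6.93 on the knockout array (0.39). Wls, the carrier that takes finished Wnt to the cell surface, was at 8.60 and 8.42 (-0.18). The glypican gene Gpc3 differed by 0.22, the second largest size in this list after Porcn, and the list's median was 0.02. The steps of ligand production thus differed in both directions.

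In the list of receptor turnover and R-spondin receptors, 4 of 11 genes were past 0.32 as higher and none as lower, against the 3.89% and 2.64% of the background. Its median was 0.04. Lgr5 was at 5.35 on the wild-type array and 6.11 on the knockout array (0.75), and Lgr4 at 6.93 and 7.58 (0.66). Both encode receptors of R-spondins, secreted proteins that keep Frizzleds and Lrp6 on the cell surface by removing the ubiquitin ligases Znrf3 and Rnf43. Lgr6, the remaining receptor of that family, was at 5.19 and 5.83 (0.64), and the ligand gene Rspo3 at 6.36 and 6.81 (0.45). The other R-spondin genes did not share the size of Rspo3: Rspo1 differed by -0.09, Rspo2 by -0.11 and Rspo4 by 0.04. Znrf3 was at 5.67 and 5.61 (-0.06). Lgr6, the R-spondin genes and Znrf3 were named after their values were seen.

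Secreted antagonists differed in both directions, with 1 of the 9 genes at or above the level past 0.32 as higher and 3 as lower, where the background was 3.89% and 2.64%, and a median of -0.03 over all 13. Sfrp2, a soluble Frizzled-like decoy, was at 7.90 on the wild-type array and 8.53 on the knockout array (0.63), and Sfrp4 of the same family at 8.01 and 7.35 (-0.66). Dkk2 and Dkk3 were the other lower genes, at -0.53 and -0.41, and were named after their values were seen. Dkk2 encodes a ligand of Lrp5 and Lrp6.

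Inside the cell, 1 of 18 cytoplasmic genes, Frat2, was past 0.32 as lower and none as higher, against backgrounds of 2.64% and 3.89%. No nuclear factor was past 0.32. The 18 cytoplasmic genes of the beta-catenin route had a median of 0.05, with 11 higher and 5 lower. All 18 reached the level, and 56.9% of all genes there had higher values and 39.9% lower ones. The median difference of those genes was 0.03. The largest difference in the list was that of Frat2, which binds the kinase GSK3 (5.45 to 5.11, -0.33). Next came Btrc, a subunit of the ligase that marks beta-catenin for destruction (6.59 to 6.80, 0.21). Ctnnb1, the gene of beta-catenin, was not analysed here because its cluster lists several symbols, as do those of Dvl2, Rnf43 and Ccnd1. The 15 nuclear factors had a median of 0.02, with 9 higher and 6 lower, led by the corepressor gene Tle4 (-0.32) and the coactivator gene Bcl9 (0.29). Of the 14 nuclear factors at or above the level, 9 were higher and 5 lower, to be set against the same 56.9% and 39.9%. Lef1 was below the level, at 4.02 and 3.84.

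Target genes of the beta-catenin route showed no common direction. Axin2, a feedback inhibitor that is the most widely used readout of the route, was at 5.08 on the wild-type array and 5.01 on the knockout array (-0.07). The 16 measured targets had a median of -0.05, with 5 higher and 11 lower, against 47% and 47.4% of all named genes. Of the 12 at or above the level, 2 were past 0.32 as higher and 3 as lower, Ccn4 among them, against 3.89% and 2.64% of the background. In the beta-catenin-independent list, 20 of 30 members had higher values and 10 lower ones, with a median of 0.04 and none past 0.32. Of the 27 at or above the level, 17 were higher and 10 lower, against 56.9% and 39.9% of all genes there. Its largest differences were those of Rock1, a kinase of the cytoskeleton (-0.23), and Vangl2, a planar polarity protein (0.22).

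**Figure D3:**
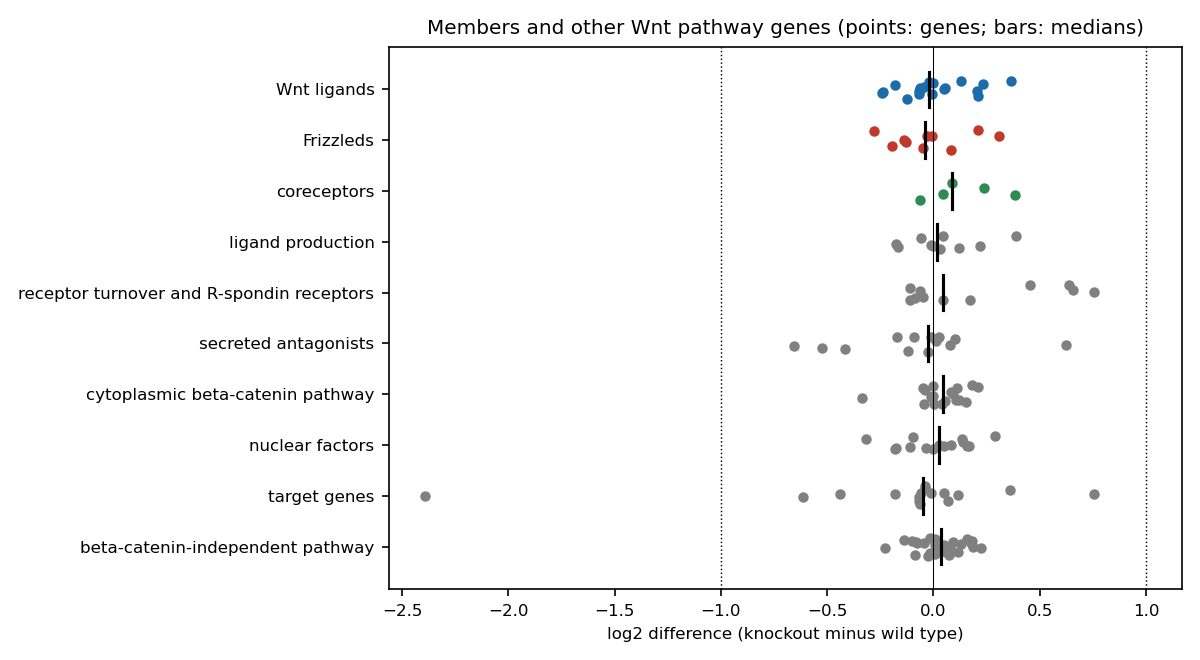
Log2 difference, knockout minus wild type (x axis), of each gene (points) by family or pathway list (rows), with the median of each as a black bar and dotted lines at 2-fold. The 3 coloured families lie between -0.28 and 0.39; the point at -2.39 is the deleted gene Ccn4, and the points above 0.6 in the receptor turnover list are the R-spondin receptors.

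Markers of other cell types moved between the arrays as well, and their part in the members' differences was not tested. The counts below are to be set against 47% higher and 47.4% lower among all named genes. Among genes at or above the level, 56.9% were higher and 39.9% lower. Of 8 macrophage markers 6 were higher and 1 lower in the knockout, and their summed linear level was 238 for the wild-type array and 408 for the knockout array. The 4 markers at or above the level were all higher: Lyz2, the macrophage lysozyme, went from 6.14 to 7.43 (1.29), and Fcer1g, Cd68 and Tyrobp differed by 0.90, 0.58 and 0.51. The other 4, among them the defining markers Adgre1 and Ptprc, were below the level. Of 6 pericyte and smooth muscle markers 1 was higher and 5 lower, with sums of 9569 and 8444. For the labelled cell type, all 7 measured stromal markers reached the level on both arrays and were higher in the knockout, with sums of 7289 and 9374. Of 8 epithelial markers 2 were higher and 6 lower (232 and 224), with Krt19, Cldn3, Krt8 and Krt14 at or above the level and Epcam, Cdh1, Krt5 and Krt18 below it. Endothelial sums were 131 and 145 with 4 of 6 markers higher. The 2 endothelial markers at or above the level, Tek and Cldn5, were both lower (-0.14 and -0.0064). Adipocyte sums were 114 and 89.3 with 2 of 5 higher. The 1 adipocyte marker at or above the level, Plin1, differed by 0.04, and Retn, below it, by -1.08. The Schwann sums of 2 measured markers were 74.2 and 71.8. In bulk RNA, fewer cells of a type and less RNA per cell cannot be told apart.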

How the data were processed

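Total RNA of 1 wild-type and 1 Wisp1 knockout sample was labelled with biotin and measured on 1 array each. The deposited values are log2 expression, which the authors obtained with RMA in Partek software, per the submitters' processing notes. Versions, genome build and the arrays normalized together are not given in the sources used here. RMA brings the arrays' distributions close together, though those of the deposited values were not identical. It can therefore hide a shift common to most genes, and differences of dim genes come out too small. Values ran from 1.74 to 13.65 over 65956 transcript clusters, with medians of 3.93 and 3.92, and 2938 clusters (4.45%) held the same value on both arrays. The number of arrays limits the precision.

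Clusters were named from the platform annotation, which can be old: 30604 had 1 gene symbol, 2146 several and 33206 none. Symbols were updated through Entrez IDs with RefSeq (GRCm38.p6), which held 22818 of them. Genes with several clusters (355 of 30142) took the one with the highest mean; no member had more than 1. Differences were taken with no further normalization and counted at 2-fold over the 15072 genes whose mean reached the median of all named genes. Every member is named; from each pathway list the 2 largest differences at or above that level, any 2-fold gene and Porcn, Wls, Ctnnb1, Axin2, Lef1 and Ccn4 are named. The members and lists were chosen with earlier results of these data known. Alternatives were other filters, centring, quantile normalization, loess (span 0.3), the mean over clusters, clusters with several symbols kept, and smaller folds of 1.5 or a log2 difference of 0.32. The counting was tested on simulated data with changes well past 2-fold. That checks the counting only, not the precision of small differences. Scripts ran in Python 3.11.15 (statsmodels 0.14.6, pandas 2.3.3, numpy 2.4.6; figures with matplotlib 3.10.9).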

Additional observations from a re-analysis of the deposited data

How the results depend on the processing

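With 1 array per genotype no replicate could be left out, and the precision of each difference is unknown. No paired analysis was possible because each genotype has 1 sample. The count of members at least 2-fold higher or lower was 0 with every filter, scaling and naming alternative and at 1.5-fold, and it was 2 higher and 0 lower at a log2 difference of 0.32. Each of the 34 members was recomputed under 5 scaling or naming alternatives, and the largest move among the 170 values was 0.06 on the log2 scale. Of these alternatives, centring, the mean over clusters and keeping clusters with several symbols could not change any member. The median difference of named genes was 0, no member had more than 1 cluster, and no cluster with several symbols named a member. Only quantile normalization and loess centring could move a value. The medians of ligands, Frizzleds, coreceptors and all members moved by at most 0.1, but those near 0 changed sign with the summary: the mean of the ligands at or above the level was 0.05 against a median of -0.0042, and the mean of all members there was 0.04 against -0.0048. Quantile normalization gave -0.04 for all members and loess centring -0.03. Below the level of 4.65, signal over background limits what can be read from 7 of the 19 ligands.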

Other observations

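Some Wnt genes sit next to each other among protein-coding genes in the RefSeq order, and 4 such pairs were found among the members. Wnt6 and Wnt10a, neighbours on chromosome 1, were both higher on the knockout array, by 0.13 and 0.23. Wnt3a and Wnt9a on chromosome 11 were also both higher, by 0.21 and 0.06, while Wnt9b and Wnt3 on the same chromosome were both lower, at -0.04 and -0.12. Wnt10b and Wnt1 on chromosome 15, the chromosome that carries the deleted gene, had opposite signs, at -0.02 and 0.21. Wnt1, Wnt3 and Wnt3a were below the median level on both arrays, and these pairs were looked at after the values were seen.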
